A study of Mus musculus with 9 samples.

Results

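The respiratory chain genes described here were the genes of the table whose symbol names a subunit of one of the 5 oxidative phosphorylation complexes, together with cytochrome c (Cycs) and cytochrome c1 (Cyc1). The symbol rule took 100 of 11315 measured genes: 87 encoded in the nucleus and 13 encoded by mitochondrial DNA. By complex, the nuclear members were 43 of complex I, 4 of complex II, 8 of complex III, 14 of complex IV, 17 of complex V (the ATP synthase) and Cycs. A few were not subunits in the strict sense: the 7 Ndufaf genes are assembly factors of complex I, Cox7a2l is a supercomplex factor, and Atp5s and Atp5sl share the name rather than the structure of the ATP synthase. No filter on low values was applied, so all 100 were tested.

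Fluorescence sorting of brain cells from C57BL/6 mice aged 60 days after birth gave 9 libraries, 3 for each reporter that marked the cells. Each group carries its reporter's name: PDGFRa-GFP (labelled oligodendrocyte progenitors), PLP-GFP (labelled pre-myelinating oligodendrocytes) and NDRG1-eGFP (labelled myelinating oligodendrocytes). No treatment was given in the labels, and nothing states whether the 3 libraries of a group stem from different animals. A p-value therefore reflects only how far these libraries scatter, which may be technical. Values are deposited normalized levels on a log2 scale, with a median of 10.57 in every library. Sequencing depth is unknown.

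The oligodendrocyte markers stood at library medians of 17.65 to 18.65 across all 9 libraries. The 7 measured progenitor markers, of 8 listed, stood far below them. Their medians were 7.41, 8.63 and 6.43 in PDGFRa-GFP replicates 1, 2 and 3, 6.92 to 7.21 in PLP-GFP and 6.21 to 7.21 in NDRG1-eGFP. PDGFRa-GFP replicate 3 thus lay below every PLP-GFP library in progenitor markers. The sort labelled progenitors held myelin transcripts like the other groups. Markers of fibroblast-like cells differed most between groups. Their library medians were 9.97 to 10.82 in PDGFRa-GFP, 3.14 to 5.81 in PLP-GFP and 8.92 to 10.46 in NDRG1-eGFP. Immediate early genes, which respond to cell stress, had medians of 8.78 to 13.39, 7.88 to 8.33 and 10.14 to 13.89 in the same order, and microglial markers 7.70 to 8.50, 7.12 to 7.60 and 8.63 to 9.45. In bulk samples such as these, fewer cells of a type and less RNA per cell cannot be told apart.

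The respiratory chain passes electrons from NADH (complex I) and succinate (complex II) through ubiquinone, complex III and cytochrome c to oxygen at complex IV, and the proton gradient it builds drives ATP synthesis at complex V. Complexes I, III, IV and V are mosaics: a few core proteins are made inside the mitochondrion from its own DNA, and all others are imported after translation in the cytosol. Complex II is encoded by the nucleus alone. Oligodendrocytes need much ATP and carbon while they build membrane, and mature myelinating cells are known to rely more on glycolysis and to pass lactate to axons.

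Many of these genes have near-identical copies elsewhere in the genome, and reads from such a stretch can be assigned to either place or dropped. To measure this, each gene's main transcript (GENCODE M21, GRCm38) was divided into all of its 50-base windows, and the share of windows found exactly in a transcript of another locus was counted. A group of processed pseudogenes and nuclear copies of mitochondrial DNA supplied most matches. The windows below are shown because the largest differences of the study's respiratory genes fell on genes like these; all 50 letters of each also stand in the other transcripts named, so none is set in capitals.
mt-Co2: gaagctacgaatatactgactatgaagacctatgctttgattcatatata
mt-Atp6: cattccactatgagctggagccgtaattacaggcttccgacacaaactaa
Atp5g2: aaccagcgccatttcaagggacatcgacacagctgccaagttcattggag
Cox7c: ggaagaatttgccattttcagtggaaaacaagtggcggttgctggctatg
Cycs: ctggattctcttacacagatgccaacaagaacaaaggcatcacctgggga
Ndufab1: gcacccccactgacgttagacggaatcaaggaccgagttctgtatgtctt
The mt-Co2 window, which lies in the coding sequence as the others do, was also found in Gm28661 on chromosome 1 and Gm13341 on chromosome 2. The mt-Atp6 window was found in Gm10925 on chromosome 1. The Atp5g2 window was found in Gm10175 and Gm10231, the Cox7c window in Gm12338 and Gm20091, the Cycs window in Gm10053, Gm10108 and Gm13772, and the Ndufab1 window in Gm4459 and Ndufab1-ps.

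The 13 mitochondrial genes divided by this measure. A run of 7 annotated copies on the minus strand of chromosome 1 (24611535 to 24616197, GRCm38) matched mt-Nd4, mt-Nd4l, mt-Nd3, mt-Co3, mt-Atp6, mt-Co2 and mt-Co1, which are neighbours in the mitochondrial genome. Shared windows made up 100% of mt-Co2, 99.9% of mt-Co3, 99.5% of mt-Atp6, 98.8% of mt-Nd4l and 98.0% of mt-Nd3. Smaller shares were found in the others, with 62.2% of mt-Nd4 and 51.1% of mt-Co1, 8.19% of mt-Nd2 and 7.61% of mt-Nd5, and none of mt-Nd1, mt-Nd6, mt-Cytb and mt-Atp8. Of the 87 nuclear members, 62 had at most 5% shared windows and 25 had more.

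The first comparison, NDRG1-eGFP against PLP-GFP, set the cells labelled myelinating against those labelled pre-myelinating. Nuclear respiratory chain genes were mostly higher in NDRG1-eGFP: 58 of 87 were called higher, 9 lower and 20 not called, with a median log2 fold change of 0.70 against 0.08 over all genes. Calls used limma's moderated test with Benjamini-Hochberg adjusted p under 0.05 over all 11315 genes, of which 48.3% were called, 26.1% higher and 22.2% lower. The mitochondrial genes did not follow as a set: 2 were higher, 6 lower and 5 not called. The 5 with over 90% shared windows were all lower. Of the 6 with up to 10%, 1 was called higher and 1 lower, 5 had fold changes above 0, and the median was 0.56. The fibroblast-like, immediate early and microglial markers given above were also higher in NDRG1-eGFP than in PLP-GFP, and their part in this result was not tested.

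Calls in the lower direction were mostly of genes with shared sequence. Among nuclear members with at most 5% shared windows, 52 of 62 were called higher and none lower, with a median of 0.79; of all genes with so few, 27.7% were higher and 19.6% lower. Among members with more than 5%, 6 of 25 were higher and 9 lower, with a median of -0.05; of all 1108 genes with that much, 11.1% were higher and 45.3% lower. The 5 nuclear members over 40%, Atp5g2, Atp5l, Cox7c, Atp5h and Uqcrb, were all lower. Across the 87 nuclear genes the Spearman correlation of log2 fold change with shared windows was -0.57, given as a description because the genes share their libraries. Genes of equal share could differ: Cox6a1 rose by 0.95 and Ndufab1 fell by 3.09, both with 12.3% shared windows.

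**Figure D1:**
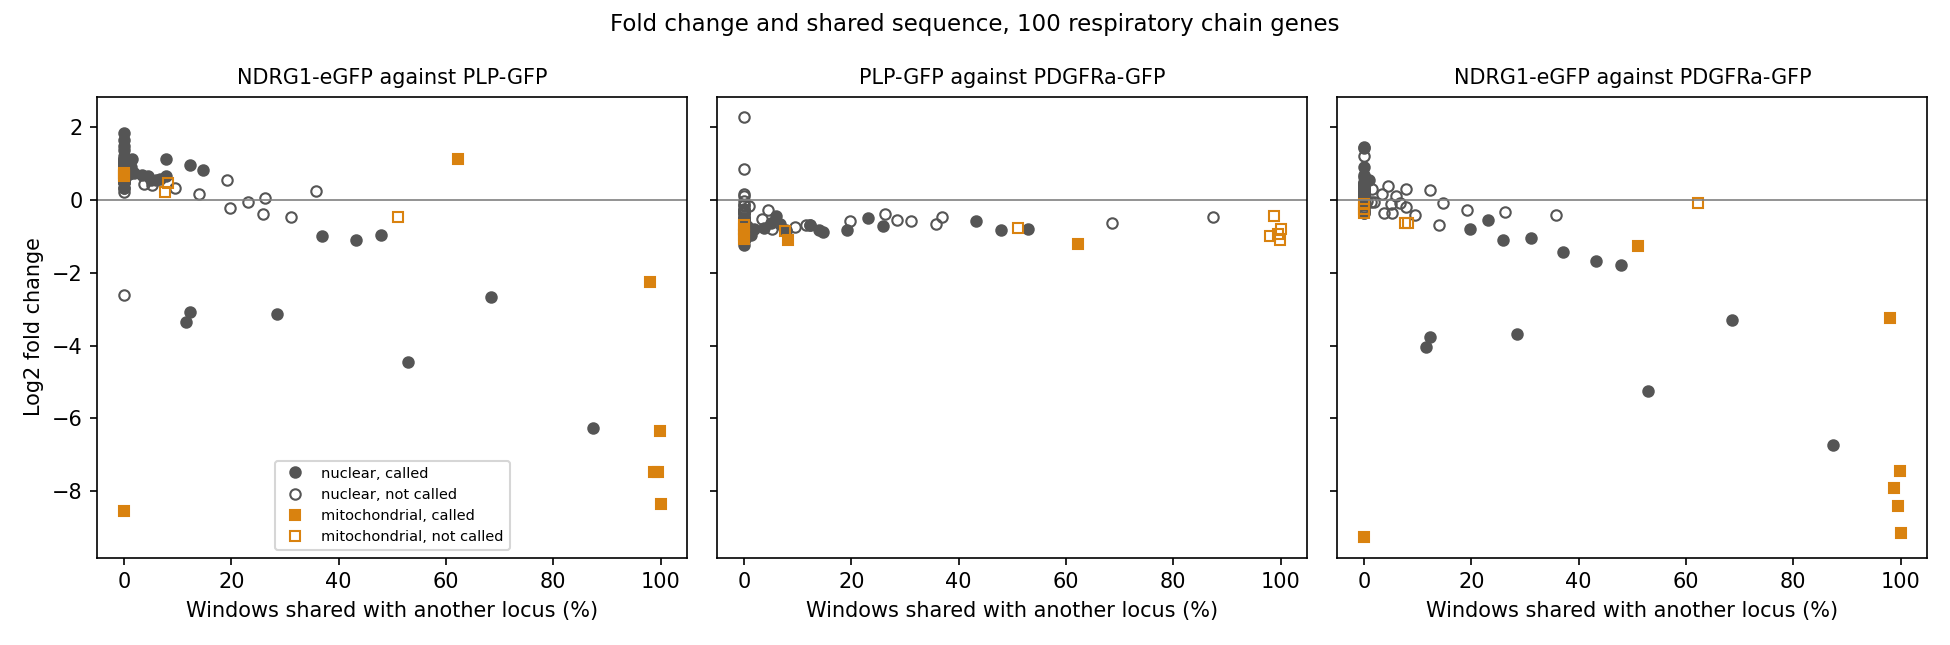
Log2 fold change of each of the 100 respiratory chain genes (y axis) against the percentage of its 50-base windows found in another locus (x axis), for the 3 comparisons; circles are nuclear and squares mitochondrial genes, filled where called. In the panels with NDRG1-eGFP most genes with many shared windows lie below 0, down to -8.35 for mt-Co2 against PLP-GFP. mt-Nd4 (62.2%) lies above 0 against PLP-GFP but just below 0 (-0.094) against PDGFRa-GFP. The lowest gene of all, mt-Atp8, has no shared window. In PLP-GFP against PDGFRa-GFP the genes with many shared windows lie level with the rest.

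Transcript length also moved with the libraries. The nuclear members are short, with a median transcript of 971 bases against 3105 for all genes tested. When each library's smooth trend of values on transcript length was removed, the median fold change of the nuclear members went from 0.70 to 0.08, beside 0.10 for all genes, and 16 were called higher and 18 lower. All 16 higher calls and 9 of the lower calls were also calls of the values as deposited. Of all genes, 32.8% were then called, 18.3% higher and 14.5% lower. Among the 62 with little shared sequence 16 were still higher and 3 lower, against 19.8% and 10.5% of all such genes. The median of the 6 mitochondrial genes with up to 10% shared windows went from 0.56 to -0.18.

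Complex I accepts electrons from NADH. Of its 43 nuclear members 30 were higher and 2 lower as deposited, beside 26.1% and 22.2% of all genes. Without the length trend 11 were higher and 5 lower, beside 18.3% and 14.5% of all genes. As deposited, the 7 core subunits, which carry the flavin and iron-sulphur clusters, included 5 called higher and none lower. The 29 accessory subunits included 20 higher and 2 lower, and the 7 assembly factors 5 higher and none lower. Ndufa3, a membrane-arm accessory subunit (chromosome 7, 3617373 to 3620327), had the highest fold change. Its levels were 12.29, 11.80 and 12.01 in PLP-GFP and 14.01, 13.81 and 13.81 in NDRG1-eGFP. The groups stood well apart, with a log2 fold change of 1.84 ± 0.18 (SE; limma adjusted p = 4.12e-05), 3.58-fold, and 0.98 with the length trend removed, still called.

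Ndufaf2, an assembly factor that acts late in building complex I, came next. It measured 10.07, 9.82 and 9.93 in PLP-GFP and 11.82, 11.39 and 11.56 in NDRG1-eGFP, a log2 fold change of 1.66 ± 0.16 (limma adjusted p = 3.95e-05) that was 0.86 and still called without the length trend. Ndufa10, an accessory subunit of the membrane arm, measured 12.21, 12.003 and 12.05 against 13.11, 13.28 and 12.99, a log2 fold change of 1.04 ± 0.13 (limma adjusted p = 0.000212). For all 3 genes every NDRG1-eGFP library was above every PLP-GFP library, and none has a shared window. The catalytic-arm subunit Ndufs1, the largest of complex I, was not called: its levels of 12.74, 12.91 and 12.84 overlapped those of 12.90, 13.16 and 13.05.

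The lowest complex I member was Ndufab1, the mitochondrial acyl carrier protein, which also serves lipoic acid and iron-sulphur cluster synthesis (chromosome 7, 122085403 to 122101886; 12.3% shared windows, one printed above). It measured 11.96, 11.51 and 11.46 in PLP-GFP and 8.25, 8.66 and 8.74 in NDRG1-eGFP. The drop of 3 log2 units left no overlap (log2 fold change -3.09 ± 0.24, limma adjusted p = 9.04e-06). Ndufb4, an accessory subunit with 37.0% shared windows, measured 9.23, 8.78 and 9.02 against 8.20, 8.24 and 7.65. Its log2 fold change of -0.98 ± 0.33 (limma adjusted p = 0.0323) lost its call when any single library of either group was left out, with adjusted p from 0.0508 to 0.108. The call was also lost with the replicate block.

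Complex II, succinate dehydrogenase, also belongs to the citric acid cycle. Sdhc, which anchors the enzyme in the membrane, measured 12.07, 11.74 and 11.80 in PLP-GFP and 12.91, 12.86 and 12.78 in NDRG1-eGFP, a log2 fold change of 0.98 ± 0.23 (limma adjusted p = 0.00579) and 1.02 without the length trend. The iron-sulphur subunit Sdhb rose by 0.82 ± 0.16 (limma adjusted p = 0.00257), but by 0.20, not called, without the trend. Neither gene has more than 0.1% shared windows. The flavoprotein Sdha measured 14.42, 14.45 and 14.42 against 14.70, 14.92 and 14.62, with a log2 fold change of 0.32 ± 0.12 (limma adjusted p = 0.0433). That call was lost when PDGFRa-GFP replicate 1, any PLP-GFP library or NDRG1-eGFP replicate 1 or 2 was left out, with adjusted p from 0.0549 to 0.154. Recentring, the replicate block and removal of the length trend also lost it, so that it fell under 10 of 18 alternatives. Sdhd, the other anchor, was scattered and not called (0.56 ± 0.53).

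In complex III, which hands electrons from ubiquinol to cytochrome c, 7 of 8 nuclear members were higher and 1 was lower. Without the length trend 2 were higher and 1 lower. Cyc1, the heme-bearing cytochrome c1 (chromosome 15, 76343523 to 76346260), measured 12.57, 12.34 and 12.38 in PLP-GFP and 13.62, 13.42 and 13.35 in NDRG1-eGFP. The groups did not overlap, with a log2 fold change of 1.03 ± 0.15 (limma adjusted p = 0.000525), and 0.52 and still called without the length trend. The small subunits Uqcr10 (1.08 ± 0.23) and Uqcrq (1.08 ± 0.23) rose as much; without the length trend Uqcrq was still called (0.56) and Uqcr10 was not (0.18). Uqcrb, which lies at the ubiquinone site and has 43.2% shared windows, measured 12.51, 12.19 and 12.19 against 11.40, 11.09 and 11.07 and was the one lower member (-1.11 ± 0.18, limma adjusted p = 0.000804).

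Cycs, the soluble carrier between complexes III and IV that also triggers caspase activation when released, had 28.5% shared windows (chromosome 6, 50562563 to 50566538). It measured 11.53, 11.79 and 12.48 in PDGFRa-GFP, 11.56, 11.26 and 11.33 in PLP-GFP, and 8.28, 8.15 and 8.36 in NDRG1-eGFP. All 3 NDRG1-eGFP libraries stood about 3 log2 units below the rest, with a log2 fold change against PLP-GFP of -3.12 ± 0.22 (limma adjusted p = 5.92e-06). The measured levels of Cyc1 and Cycs, consecutive carriers in the chain, moved in opposite directions. Cyc1 has no shared window, and the part of shared sequence in this contrast was not tested.

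Complex IV, cytochrome c oxidase, had 8 of 14 nuclear members higher and 1 lower as deposited. Without the length trend 1 was higher and 6 were lower. Cox4i1, the ubiquitous form of the largest nuclear subunit (the form Cox4i2 was not analysed here), measured 14.24, 13.73 and 13.87 in PLP-GFP and 15.32, 14.77 and 14.94 in NDRG1-eGFP. That is a log2 fold change of 1.06 ± 0.22 (limma adjusted p = 0.00349), and 0.30, not called, without the length trend. Cox7a2, the form of subunit 7a outside muscle and heart, was low in every library. It measured 7.73, 7.77 and 7.61 in PLP-GFP against 9.27, 9.37 and 8.93 in NDRG1-eGFP, a log2 fold change of 1.49 ± 0.30 (limma adjusted p = 0.00257) that was 0.69 and still called without the trend.

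Of the tissue-specific pairs, the ubiquitous Cox6a1 and Cox6b1 rose by 0.95 ± 0.21 and 0.87 ± 0.17, and neither was called without the length trend (0.12 and 0.05). The muscle form Cox6a2 was near the bottom of the table and erratic, at 2.56, 3.64 and 5.54 in PDGFRa-GFP, 7.83, 5.20 and 5.48 in PLP-GFP and 4.66, 4.58 and 1.42 in NDRG1-eGFP, and was not called. The testis form Cox6b2 was called higher (1.36 ± 0.42, limma adjusted p = 0.0206). It lost its call without PLP-GFP replicate 1 or 3, or NDRG1-eGFP replicate 1 or 2, and without the length trend (0.53). Its adjusted p was up to 0.362 over the alternatives. The member lower as deposited was Cox7c, a small subunit found in all tissues (chromosome 13, 86044816 to 86046904, with 53.0% shared windows). It measured 12.74, 12.07 and 12.22 in PLP-GFP and 8.04, 7.73 and 7.89 in NDRG1-eGFP, with a log2 fold change of -4.46 ± 0.22 (limma adjusted p = 6.1e-07).

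In complex V, 10 of 17 nuclear members were higher and 4 lower. Without the length trend 1 was higher and 5 were lower. Atp5b, the catalytic beta subunit, measured 15.47, 15.40 and 15.41 in PLP-GFP and 16.21, 16.24 and 15.97 in NDRG1-eGFP. Its log2 fold change was 0.72 ± 0.12 (limma adjusted p = 0.000882), and 0.33, not called, without the length trend. Atp5e, the epsilon subunit of the central stalk, rose by 0.97 ± 0.29 (limma adjusted p = 0.0184), a call lost without PLP-GFP replicate 2 or 3 or NDRG1-eGFP replicate 1 or 3. Without the length trend Atp5e stood at 0.07.

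The rotor ring of the ATP synthase is made of a single mature protein, subunit c. Subunit c is encoded by 3 genes that differ in their import signals, and the measured levels of these genes parted. The part of shared sequence in this was not tested. Atp5g1 (11.6% shared windows) measured 12.33, 12.68 and 13.31 in PDGFRa-GFP, 12.32, 11.98 and 11.97 in PLP-GFP and 8.87, 8.70 and 8.64 in NDRG1-eGFP. Atp5g2 (chromosome 15, 102662864 to 102672352; 87.4% shared windows) measured 10.64, 10.88 and 11.43, then 10.77, 10.40 and 10.40, then 4.40, 4.66 and 3.73. Atp5g3, without a shared window, measured 13.15, 13.36 and 13.56, then 12.98, 12.52 and 12.73, then 13.71, 13.49 and 13.48. Against PLP-GFP, Atp5g1 fell by 3.35 and Atp5g2 by 6.26 on the log2 scale in NDRG1-eGFP (SE 0.22 and 0.30; limma adjusted p = 3.74e-06 and 4.57e-07), while Atp5g3 rose by 0.81 ± 0.15 (limma adjusted p = 0.00186). Atp5g3, Atp5l and Atp5h were picked out after their values were seen. Atp5l, subunit g of the membrane stalk with 68.5% shared windows, fell by 2.66, and Atp5h, subunit d of the side stalk with 47.9%, fell by 0.96.

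**Figure D2:**
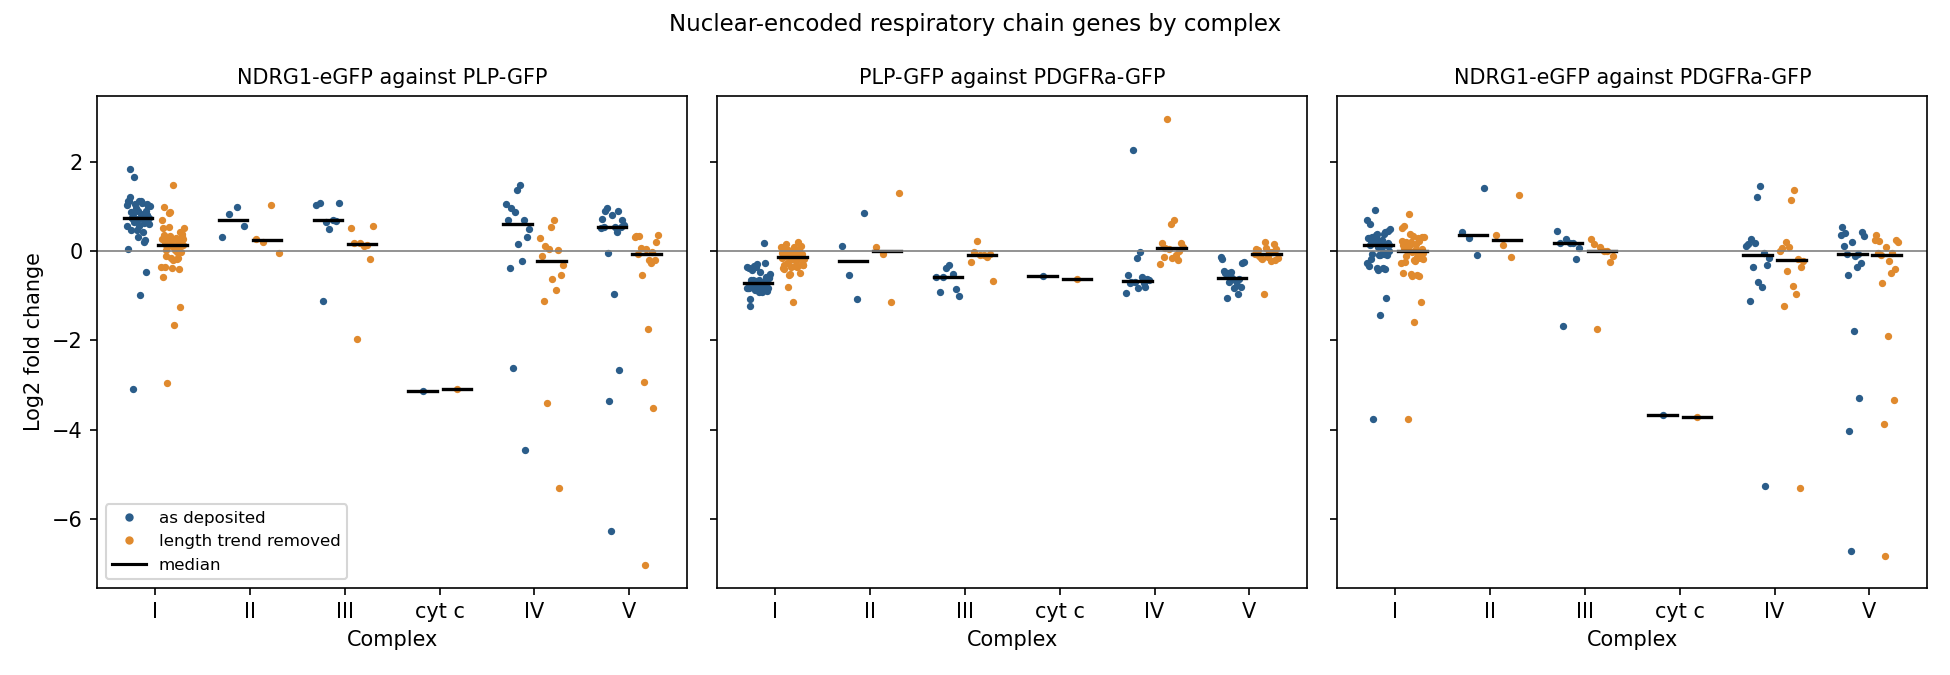
Log2 fold change of the 87 nuclear respiratory chain genes by complex (x axis; cyt c is Cycs), 1 point per gene with the median as a bar, for the values as deposited and with each library's trend on transcript length removed. Against PLP-GFP the medians of complexes I, II, III, IV and V lie above 0 as deposited (0.75, 0.69, 0.69, 0.60 and 0.54) and between -0.21 and 0.24 without the trend.

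The mitochondrial genes of complex I fell into separate groups between the same libraries. mt-Nd4 measured 15.37, 14.72 and 14.60 in PLP-GFP and 16.04, 15.67 and 16.35 in NDRG1-eGFP, a log2 fold change of 1.12 ± 0.26 (limma adjusted p = 0.00562). Its windows are 62.2% shared, and without the length trend its fold change was 0.56 and not called (adjusted p = 0.0908). mt-Nd1 (0.73 ± 0.34), mt-Nd2 (0.46 ± 0.27), mt-Nd5 (0.22 ± 0.31) and mt-Nd6 (0.69 ± 0.27) were not called. mt-Nd6 is the one gene of the group on the other strand, and the sources used here do not say whether counting used strand; it overlaps mt-Nd5 by 14 bases. By contrast mt-Nd4l measured 8.74, 9.23 and 9.18 in PDGFRa-GFP, 9.005, 8.55 and 8.29 in PLP-GFP and 1.42, 1.17 and 0.85 in NDRG1-eGFP, near the bottom of the scale.

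The log2 fold change of mt-Nd4l against PLP-GFP was -7.47 ± 0.40 (limma adjusted p = 8.74e-07). It overlaps mt-Nd4 by 7 bases, and both belong to the same complex. mt-Nd3 measured 10.77, 9.87 and 9.76 in PLP-GFP and 7.69, 7.79 and 8.12 in NDRG1-eGFP, a log2 fold change of -2.27 ± 0.53 (limma adjusted p = 0.00584). Both genes have over 90% shared windows.

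mt-Cytb, the one mitochondrial subunit of complex III, has no shared window. It measured 17.62, 17.05 and 16.94 in PLP-GFP and 17.70, 17.70 and 18.21 in NDRG1-eGFP (0.66 ± 0.22, limma adjusted p = 0.031). The call was lost without PLP-GFP replicate 2 or 3 or NDRG1-eGFP replicate 3, after recentring and with the replicate block. It was also lost without the length trend, where the fold change was 0.04. The number of mitochondrial genes called higher was 2, and it was 4 without PDGFRa-GFP replicate 3 or PLP-GFP replicate 1 and 1 without PLP-GFP replicate 2 or 3 or NDRG1-eGFP replicate 3.

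The 3 mitochondrial subunits of cytochrome c oxidase form its catalytic core, and their measured levels did not move together. Shared windows made up 51.1% of mt-Co1, 100% of mt-Co2 and 99.9% of mt-Co3, and their part in this was not tested. mt-Co1, with the heme and copper site where oxygen binds, measured 17.86, 17.10 and 16.97 in PLP-GFP and 16.77, 16.75 and 16.98 in NDRG1-eGFP and was not called (-0.47 ± 0.29). mt-Co2, which receives electrons from cytochrome c, measured 13.18, 13.85 and 14.56 in PDGFRa-GFP, 13.48, 12.80 and 12.90 in PLP-GFP and 4.22, 4.86 and 5.05 in NDRG1-eGFP. mt-Co3 measured 13.13, 13.73 and 15.17, then 13.37, 12.65 and 12.68, then 6.02, 6.75 and 6.92. The NDRG1-eGFP libraries of mt-Co2 and mt-Co3 lay 5 or more log2 units below every other library.

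The ATP synthase genes mt-Atp6 and mt-Atp8 behaved alike. mt-Atp6, a part of the proton channel with 99.5% shared windows, measured 13.70, 13.03 and 13.09 in PLP-GFP and 5.11, 6.46 and 5.85 in NDRG1-eGFP. mt-Atp8 measured 10.94, 10.40 and 10.39 against 1.80, 2.46 and 1.84, the largest drop of all members (-8.54 ± 0.42, limma adjusted p = 5.46e-07). mt-Atp8 has no shared window with an annotated transcript, is 204 bases long and overlaps mt-Atp6 by 43 bases. On chromosome 1 the copies of mt-Co2 and mt-Atp6 lie 233 bases apart with no annotated transcript between them, at the place mt-Atp8 holds in mitochondrial DNA; whether a copy of it lies there was not tested.

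**Figure D3:**
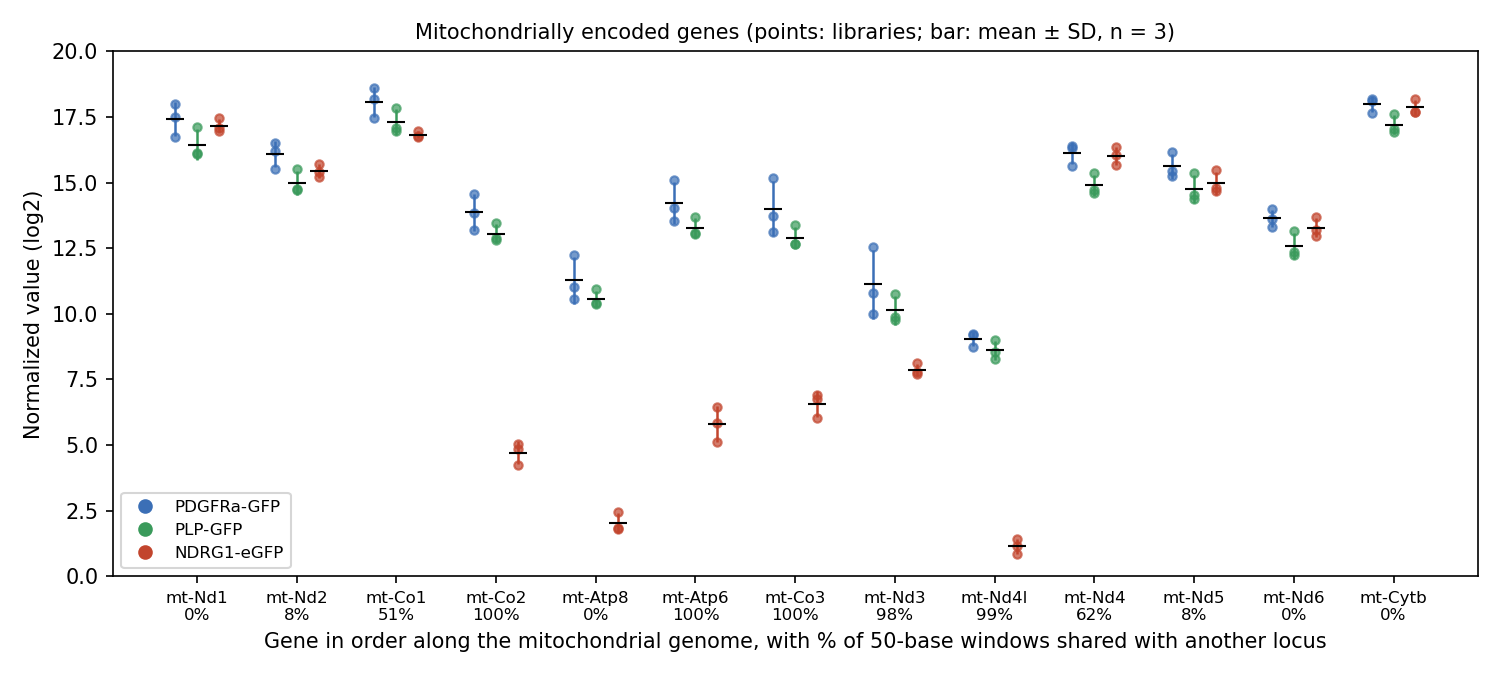
Normalized log2 values (y axis) of the 13 mitochondrial genes in their order along mitochondrial DNA (x axis, with the percentage of shared windows); points are libraries and bars mean ± SD (n = 3). The NDRG1-eGFP points drop for 6 genes from mt-Co2 to mt-Nd4l and lie near or among the others for mt-Nd1, mt-Nd2, mt-Nd4, mt-Nd5, mt-Nd6 and mt-Cytb.

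Per length (log2 level less log2 of transcript kilobases), the order of the mitochondrial genes changed with the group. In PDGFRa-GFP it ran from mt-Cytb (17.80 ± 0.30, SD, n = 3), mt-Nd1 (17.48 ± 0.64) and mt-Co1 (17.46 ± 0.58), which did not differ beyond their spread, down to mt-Nd3 (12.65 ± 1.30) and mt-Nd4l (10.80 ± 0.27). In NDRG1-eGFP mt-Cytb again led at 17.68 ± 0.29, and mt-Co2 (5.26 ± 0.43), mt-Atp8 (4.33 ± 0.37) and mt-Nd4l (2.90 ± 0.28) closed the order. Among nuclear members the highest level per length was that of Cox4i1 in PDGFRa-GFP (15.28 ± 0.43) and NDRG1-eGFP (15.40 ± 0.28), and of Atp5b in PLP-GFP (14.49 ± 0.04). Cox6a1 lay within the spread of the leading gene in all 3 groups (15.09 ± 0.38, 15.35 ± 0.17 and 14.40 ± 0.32 in the same order), as Atp5b did in NDRG1-eGFP (15.20 ± 0.15) and Cox4i1 in PLP-GFP (14.33 ± 0.26). Sdhd, the succinate dehydrogenase anchor, was among the 6 lowest in all 3 groups (5.38 ± 0.99, 6.23 ± 0.12 and 6.80 ± 0.55).

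PLP-GFP against PDGFRa-GFP set pre-myelinating cells against progenitors by label. Nuclear respiratory chain genes were lower in PLP-GFP: none of 87 was called higher and 42 lower, with a median log2 fold change of -0.66 against 0.03 over all genes, of which 17% were called, 8.46% higher and 8.53% lower. Lower calls fell on 17 of 43 members of complex I, 5 of 8 of complex III, 9 of 14 of complex IV and 9 of 17 of complex V, with median fold changes of -0.71, -0.58, -0.67 and -0.61. In complex II 2 of 4 were lower and the median was -0.21, with Sdha (0.11) and Sdhd (0.86) above 0. The 4 mitochondrial genes called lower were mt-Nd4 (-1.22 ± 0.26), mt-Nd2 (-1.09 ± 0.27), mt-Nd6 (-1.06 ± 0.27) and mt-Cytb (-0.79 ± 0.22), and the median of the 13 was -0.94. Shared sequence did not order these fold changes: 13 of 25 nuclear members over 5% and 29 of 62 others were lower, with medians of -0.68 and -0.65. Of all genes over 5% shared, 3.61% were higher and 16.2% lower, and of all others 9.01% and 7.69%. The Spearman correlation of fold change with shared windows over the 87 was -0.07.

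These differences were not larger than the spread between libraries in every arrangement. The nuclear medians were 12.33, 12.54 and 13.09 in the PDGFRa-GFP libraries and 12.14, 11.64 and 11.76 in PLP-GFP, so that the lowest of the first group and the highest of the second lay close together. The count of 42 was 7 without PDGFRa-GFP replicate 2, 1 without PLP-GFP replicate 2, 2 without PLP-GFP replicate 3 and 27 without NDRG1-eGFP replicate 2. The mitochondrial count of 4 was 9 without PDGFRa-GFP replicate 1, 7 without PLP-GFP replicate 1 and 0 without PDGFRa-GFP replicate 2, PLP-GFP replicate 2 or PLP-GFP replicate 3. With the length trend removed the nuclear median was -0.10, 2 nuclear genes were lower and no mitochondrial gene was called, against 7.72% of all genes (3.36% higher, 4.36% lower). The medians of fibroblast-like, microglial and astrocyte markers (9.23 to 10.13 against 8.70 to 9.12 for the last) were also lower in every PLP-GFP library than in any PDGFRa-GFP library. Immediate early genes stood at 13.25 and 13.39 in PDGFRa-GFP replicates 1 and 2, but at 8.78 in replicate 3, the library highest in nuclear respiratory genes, next to the 7.88 to 8.33 of PLP-GFP. Their part in the result was not tested.

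The 2 genes that stayed lower without the length trend were Ndufa3 and Sdhc. Ndufa3 measured 12.94, 13.27 and 13.57 in PDGFRa-GFP and 12.29, 11.80 and 12.01 in PLP-GFP, with a log2 fold change of -1.23 ± 0.18 (limma adjusted p = 0.00376). It was called under every alternative tried, but without the length trend the fold change was -0.41 (adjusted p = 0.0374). Sdhc measured 12.62, 12.64 and 13.57 against 12.07, 11.74 and 11.80, a log2 fold change of -1.07 ± 0.23 (limma adjusted p = 0.0158). Its call was lost without PLP-GFP replicate 2 or 3, with adjusted p up to 0.0805. Uqcrq (-1.01 ± 0.23), Cox4i1 (-0.95 ± 0.22), Atp5e (-1.05 ± 0.29) and Ndufaf2 (-0.74 ± 0.16) also lost their calls without either of these libraries, and without the length trend. All but Uqcrq lost them without PDGFRa-GFP replicate 2 too, and Atp5e lost its call under 9 of 18 alternatives. Ndufs1 (0.17 ± 0.12), Sdha (0.11 ± 0.12) and Atp5b (-0.17 ± 0.12), which have little spread, were not called.

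**Figure D4:**
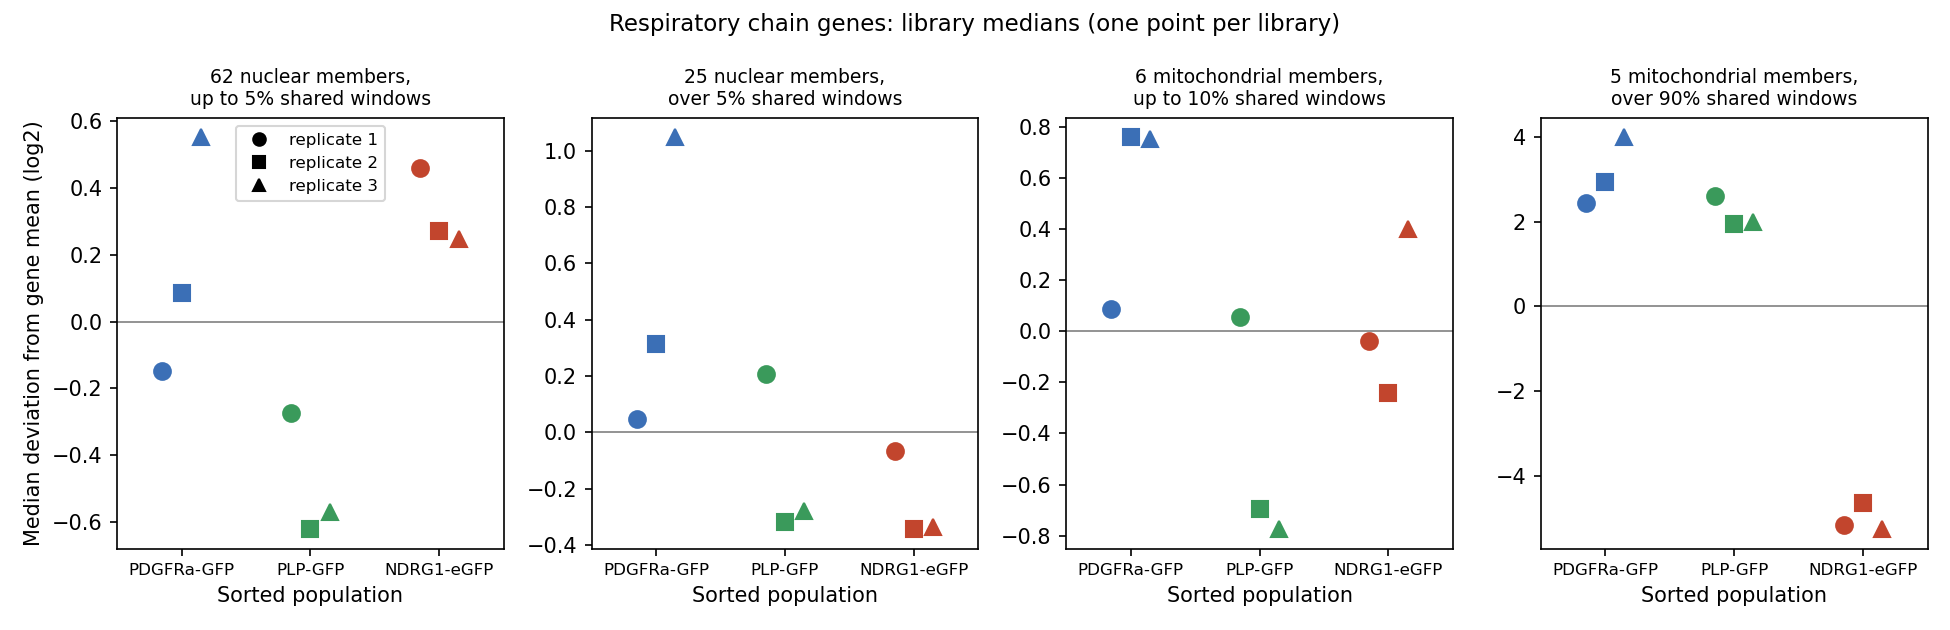
Median deviation of each library from the gene means (y axis, log2) for 4 classes of respiratory chain gene by sorted population (x axis); each point is 1 library and symbols mark replicate numbers, with a separate y scale in each panel. Nuclear genes with little shared sequence are lowest in PLP-GFP (-0.27, -0.62 and -0.57), while mitochondrial genes over 90% shared are lowest in NDRG1-eGFP (-5.14, -4.64 and -5.25).

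In NDRG1-eGFP against PDGFRa-GFP, the labelled ends of the lineage, the nuclear members hardly differed as a set: 8 were higher and 13 lower, with a median of 0.12 against 0.14 over all genes, of which 21.1% were called, 10.7% higher and 10.4% lower. These 2 comparisons with NDRG1-eGFP share its libraries. All 13 lower calls fell on the 25 genes with over 5% shared windows and all 8 higher calls on the 62 others; of all genes over 5%, 43% were lower and 2.26% higher, and of the rest 6.82% and 11.6%. The lower genes included Atp5g2 (-6.72 ± 0.30), Cox7c (-5.25 ± 0.22), Atp5g1 (-4.04 ± 0.22), Ndufab1 (-3.77 ± 0.24), Cycs (-3.67 ± 0.22), Uqcrb (-1.69 ± 0.18) and Cox5b, a zinc-binding subunit of complex IV (-1.11 ± 0.17). Without the length trend 6 nuclear members were higher and 17 lower, and 17.6% of all genes were called (9% higher, 8.57% lower).

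The higher genes included Cox7a2, at 7.29, 7.52 and 8.39 in PDGFRa-GFP against 9.27, 9.37 and 8.93 in NDRG1-eGFP (1.46 ± 0.30, limma adjusted p = 0.00765). Ndufaf2 (0.91 ± 0.16) and Ndufa10 (0.69 ± 0.13) were also higher, and these 3 held under every alternative. Of the same 18 alternatives, Ndufs1 (0.38 ± 0.12) and Atp5s (0.42) lost the call under 14, Ndufa3 (0.61 ± 0.18) and Sdha (0.43 ± 0.12) under 9, and Atp5b (0.54 ± 0.12) under 3. The count of 8 was 27 without PDGFRa-GFP replicate 3, the library highest in nuclear respiratory genes. It was 4 without PDGFRa-GFP replicate 1, PLP-GFP replicate 3 or NDRG1-eGFP replicate 1 or 2, and 5 without PDGFRa-GFP replicate 2 or NDRG1-eGFP replicate 3. Of the mitochondrial genes 7 were lower: the 6 that were also lower against PLP-GFP, and mt-Co1 (-1.25 ± 0.29, limma adjusted p = 0.0143), which lost its call without NDRG1-eGFP replicate 1 or 2 with adjusted p up to 0.0546.

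Genes that work beside the chain were read from 6 lists, whose counts stand beside the shares of all genes given above: 26.1% higher and 22.2% lower in NDRG1-eGFP against PLP-GFP, and 18.3% and 14.5% without the length trend. For PLP-GFP against PDGFRa-GFP these shares were 8.46% and 8.53%, and 3.36% and 4.36% without the trend. For NDRG1-eGFP against PDGFRa-GFP they were 10.7% and 10.4%, and 9% and 8.57% without the trend. Of 43 measured assembly factors of complexes I to V, 24 (55.8%) were higher in NDRG1-eGFP than in PLP-GFP and 2 lower, and 13 (30.2%) and 3 without the length trend. Sdhaf1, which helps insert the iron-sulphur clusters of succinate dehydrogenase, measured 9.57, 9.28 and 9.29 in PLP-GFP and 10.79, 10.70 and 10.71 in NDRG1-eGFP (1.35 ± 0.18, limma adjusted p = 0.000329). Ecsit, a complex I assembly factor, was higher by 0.99 ± 0.14 and Surf1, needed for heme insertion into complex IV, by 0.83 ± 0.12. Ecsit was still called without the length trend (0.52) and Surf1 was not (0.22). Atpaf1, a chaperone of the ATP synthase head with 34.8% shared windows, was lower by 1.39 on the log2 scale (fold change -1.39 ± 0.22). Against PDGFRa-GFP, 8 of the 43 (18.6%) were lower in PLP-GFP and none higher, beside 8.53% of all genes lower, and 1 was lower without the length trend. NDRG1-eGFP had 5 higher (11.6%, beside 10.7% of all genes) and 1 lower, and 2 and 2 without the trend.

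Of 20 measured genes of ubiquinone synthesis and other electron donors, 11 (55%) were higher in NDRG1-eGFP than in PLP-GFP and none lower. Without the length trend 3 were higher (15%, below the share of all genes) and 1 lower. Sqrdl, which oxidises sulphide and feeds electrons to ubiquinone, measured 8.94, 8.75 and 8.70 in PLP-GFP and 11.004, 10.47 and 10.75 in NDRG1-eGFP. Its log2 fold change was 1.94 ± 0.19 (limma adjusted p = 4.02e-05), and 1.58 without the length trend. Etfb, part of the electron carrier of fatty acid oxidation, rose by 1.15 ± 0.19 and Coq7, a ubiquinone synthesis enzyme, by 1.07 ± 0.22. These were 0.44, still called, and 0.37, not called, without the length trend. In PLP-GFP against PDGFRa-GFP 1 (5%) was higher and 3 (15%) lower, and 0 and 1 without the trend. In NDRG1-eGFP against PDGFRa-GFP 4 (20%) were higher and none lower, and 5 and none without the trend.

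Of 20 measured carriers, channels and organisers of the inner membrane folds, 9 (45%) were higher and 4 (20%) lower in NDRG1-eGFP against PLP-GFP, and 7 and 4 without the length trend. Atpif1, the inhibitor that stops the ATP synthase from running backwards, measured 10.92, 10.34 and 10.50 against 12.17, 11.85 and 11.98 (1.41 ± 0.19, limma adjusted p = 0.000281). Chchd3, of the complex that shapes cristae, was higher by 0.98 ± 0.12. Apoo, of the same complex and with 73.1% shared windows, measured 9.44, 9.52 and 9.43 against 7.23, 7.26 and 7.28 and was lower (-2.21 ± 0.20, limma adjusted p = 2.52e-05). In PLP-GFP against PDGFRa-GFP 1 (5%) was higher and 5 (25%) lower, and 1 and 0 without the trend. In NDRG1-eGFP against PDGFRa-GFP 5 (25%) were higher and 4 (20%) lower, and 2 and 4 without the trend.

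Of 25 measured genes of mitochondrial DNA maintenance, transcription and RNA processing, 8 (32%) were higher and 2 (8%) lower in NDRG1-eGFP against PLP-GFP, and 3 (12%) and 1 without the length trend. The share higher was near that of all genes, and below it without the trend, so the count is no result about the list. Top1mt, the mitochondrial topoisomerase, measured 8.57, 8.70 and 8.63 against 10.38, 10.20 and 10.57 (1.75 ± 0.26, limma adjusted p = 0.000571). The lower genes were Tfb2m, a mitochondrial transcription factor with 39.6% shared windows (-2.04 ± 0.27), and Polg, the mitochondrial DNA polymerase (-0.79 ± 0.16, and -0.07 without the length trend). PLP-GFP against PDGFRa-GFP had 1 (4%) higher and 2 (8%) lower, and 0 and 2 without the trend. NDRG1-eGFP against PDGFRa-GFP had 4 (16%) higher and 2 (8%) lower, and 3 and 1 without the trend.

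Among 9 nuclear regulators of respiratory genes, none was higher and 4 were lower in NDRG1-eGFP against PLP-GFP. They were Creb1 (-0.85 ± 0.17), Gabpa (-0.76 ± 0.19) and Gabpb2 (-1.02 ± 0.24), the last 2 subunits of the factor GABP (NRF-2), and the coactivator Pprc1 (-0.82 ± 0.23). Without the length trend none of these 4 was called and 1 of the 9 was higher, Yy1 (0.83, and 0.21 and not called as deposited), named after its values were seen. In PLP-GFP against PDGFRa-GFP, Gabpa (0.75 ± 0.19) and Creb1 (0.63 ± 0.17) were higher and none was lower, neither was called without the trend, and none of the 9 was called in NDRG1-eGFP against PDGFRa-GFP. The last list held genes that the symbol rule leaves out, of which 3 were measured. In NDRG1-eGFP against PLP-GFP, Aifm1 (0.66 ± 0.14) and 2010107E04Rik (0.71 ± 0.17) were higher. Usmg5, a small ATP synthase subunit with 8.46% shared windows, measured 11.67, 11.31 and 11.38 against 9.69, 9.68 and 9.70 (-1.76 ± 0.15, limma adjusted p = 1.49e-05). Usmg5 was still lower without the length trend, while Aifm1 (0.38) and 2010107E04Rik (-0.11) were not called.

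The promoters of the nuclear members, whatever their share of shared windows, were read for the motif of NRF1, a factor known to act on many respiratory genes. RefSeq promoters (GRCm38.p6, from 250 bases before to 50 after the gene start) were found for 70 of the 87. The palindromic core of the motif, CGCATGCG, stood in 11 of these genes (15.7%), against 4.76% of the 8726 measured genes with a promoter. It stood in 1.87% of all 32851 promoters of the table and in 2.07% of its 27025 genes. A gene counted where any of its promoters held the motif. These stretches show the core, in capitals, in genes whose measured levels moved in opposite directions in NDRG1-eGFP.
Cox6a1: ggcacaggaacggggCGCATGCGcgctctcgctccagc
Ndufaf4: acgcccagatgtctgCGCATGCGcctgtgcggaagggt
Cycs: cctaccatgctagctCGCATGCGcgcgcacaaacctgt
Atp5g2: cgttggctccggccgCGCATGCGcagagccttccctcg
They lie at chr5:115349097-115349134 (minus strand), chr4:24897956-24897993 (plus strand), chr6:50566608-50566645 (minus strand) and chr15:102671066-102671103 (minus strand), each printed 5′ to 3′ on its gene's strand. A match is a description and not a measured binding site. In NDRG1-eGFP against PLP-GFP, Cox6a1 and the complex I assembly factor Ndufaf4 were called higher, while Cycs and Atp5g2 were called lower. Shared windows made up 12.3% of Cox6a1, 28.5% of Cycs and 87.4% of Atp5g2, and their part in these calls was not tested. The median fold change of the 11 genes with the core was 0.71, and of the 59 without it 0.70. The medians were -0.62 and -0.68 in PLP-GFP against PDGFRa-GFP, and 0.26 and 0.11 in NDRG1-eGFP against PDGFRa-GFP. These differences were not tested.

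Other motifs, searched on both strands as well, are given by their share of the 70 members against that of the measured genes and of all promoters. The last share counts single promoters and the others count genes. The overlapping ETS and GABP motifs CCGGAAGT and ACCGGAAG stood in 5.71% against 9.45% and 3.89%, and in 10% against 5.54% and 2.30%. The YY1 motif AAGATGGCG stood in 10% against 3.85% and 1.40%, and the Sp1 core GGGCGG in 45.7% against 70.7% and 35.7%. TATAAA stood in 7.14% against 8.38% and 13.6%, CACGTGAC in 1.43% against 5.01% and 2.25%, and CATGTGAC in none against 1.03% and 1.48%. No match says only that these letters are not in this window.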

How the data were processed

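RNA-seq values of 9 libraries (3 sorted populations, 3 libraries each, grouped by the reporter in the labels) were used. The deposited values are log2 normalized levels for 11315 genes, per the file headers and the values, which ran from 0.29 to 21.87; how the authors normalized them, the aligner's settings and the counting are not given in the sources used here. BWA, DESeq2 1.2.5 and build mm10 stand in the submitters' processing notes, without their roles. Raw counts were not analysed here, so precision rests on the spread of 3 libraries.

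The values were fitted as deposited with limma-trend (limma 3.58.1, R 4.3.3), as 1 model of the 3 groups over all 9 libraries, with no added constant or filter, since the files held logarithms. Tests were two-sided, adjusted by Benjamini-Hochberg over all genes and called under 0.05. A 3 against 3 exact permutation test cannot go below 0.1 and was not used. The fit was tested on simulated data. Transcript lengths and shared 50-base windows came from GENCODE M21, with 11272 of 11315 symbols matched (343 by an older symbol). Length trends were removed per library by loess (span 0.5).

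Members and lists were chosen with earlier results of these data known. The text names every mitochondrial member, Cyc1, Cycs, Sdha to Sdhd, members of tissue-specific pairs, genes among the 2 highest and 2 lowest nuclear fold changes of complexes I, III, IV and V per comparison, and up to 4 genes per list with the smallest adjusted p. Alternatives were another centring, a filter at a mean of 8, a constant of 5 added to linear values, replicate number as a block, fits of 2 groups, the length and shared-window settings and each library left out. Leaving out 2 libraries together, and combining the length and shared-window settings, were added after the data were seen.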

Additional observations from a re-analysis of the deposited data

How the results depend on the processing

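Replicate numbers did not pair the libraries: residuals of same-numbered libraries correlated at -0.23 to 0.09. No count of calls moved by over 1.5 times under a filter at a mean of 8 or a constant of 5. For NDRG1-eGFP against PLP-GFP, the nuclear count higher (58) was 16 without the length trend and 15 when genes with shared windows were left out too, and 41 to 65 with each library left out; the count lower (9) was 18, 3 with both, 0 with shared genes alone out, and 8 to 10. The mitochondrial count higher (2) was 1 after recentring, with the replicate block or with shared genes out, 4 in a fit of the 2 groups, 0 without the length trend with or without shared genes, 5 without PDGFRa-GFP replicate 3 and PLP-GFP replicate 1, and 1 to 4 with each library left out; the count lower (6) was 1 with shared genes out, alone or with the trend. For PLP-GFP against PDGFRa-GFP, the nuclear count lower (42) was 9 with the replicate block and in a fit of the 2 groups, 2 without the length trend with or without shared genes, and 1 to 61 with each library left out; the count higher was 0 to 1. The mitochondrial count lower (4) was 1 with the replicate block or 2 groups, 0 without the length trend with or without shared genes, 2 with shared genes out, 7 without the 2 libraries, and 0 to 9. For NDRG1-eGFP against PDGFRa-GFP, the nuclear count higher (8) was 4 after recentring, with the replicate block or with trend and shared genes out, 3 in a fit of the 2 groups, 31 without the 2 libraries, and 4 to 27; the count lower (13) was 0 with shared genes out and 1 with the trend removed too, and the mitochondrial count lower (7) was 1 in both.

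Medians changed sign for the mitochondrial genes in NDRG1-eGFP against PLP-GFP (0.22 with a mean of at least 8, which drops genes, and 0.68 with shared genes out) and for the nuclear genes in NDRG1-eGFP against PDGFRa-GFP (-0.018 without the length trend, -0.067 without PDGFRa-GFP replicate 1 and -0.0034 without NDRG1-eGFP replicate 1, with a range of -0.067 to 0.301 over single libraries left out). Without the length trend 23 of the 87 nuclear fold changes had the opposite sign in NDRG1-eGFP against PLP-GFP, 11 of them called as deposited and 4 others called without the trend, and 22 in PLP-GFP against PDGFRa-GFP, 7 of them called as deposited. Among the named genes those of Atp5k (-0.029), Cox6c (-0.62), Cox8a (-0.53), Ndufa4 (-0.32) and Uqcrh (-0.18) reversed in NDRG1-eGFP against PLP-GFP, and those of Cox6a1 (0.079), Cox6b1 (0.041), Cox8a (0.17), Ndufa4 (0.094) and Uqcrb (0.22) in PLP-GFP against PDGFRa-GFP. The cause of these changes was not tested. The depth of the libraries is unknown, so no floor can be set under the low values of mt-Nd4l, mt-Atp8 or Cox6a2.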

Other observations

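As a description over the 9 libraries, nuclear members were compared with the median of the 62 nuclear members that have little shared sequence, of which those 62 are themselves a part. Ndufb10, Ndufa2, Uqcrq, Ndufb6, Ndufb7 and Cox4i1 followed it most closely, with Pearson correlations of 0.99 or more. Among the mitochondrial genes mt-Nd4 (0.93), mt-Nd1 (0.89) and mt-Cytb (0.88) followed it too, as mt-Nd2 (0.79) and mt-Nd6 (0.78) did less closely, and mt-Nd4l (-0.45), mt-Atp8 (-0.41) and mt-Co2 (-0.41) went against it. Atp5g2 (-0.43), Cox7c (-0.35) and Cycs (-0.33) were the nuclear genes that went most against it. Ndufs1 (-0.12) and Sdha (0.31), subunits without shared windows that bind the redox centres of their complexes, followed it little. These libraries fall into groups, so no test was made.

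The summed linear values of the 87 nuclear members made up 0.919% to 1.42% of all values in the PDGFRa-GFP libraries, 0.674% to 0.851% in PLP-GFP and 1.07% to 1.25% in NDRG1-eGFP. The 13 mitochondrial genes made up 1.11% to 2.12%, 0.697% to 1.25% and 0.946% to 1.32%. The PDGFRa-GFP library with the highest nuclear share, replicate 3, was also the one with the highest mitochondrial share.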
